A study of Mus musculus with 8 samples.

Results

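The data described here are the RNA that dopaminergic neurons of the mouse midbrain held on their ribosomes after injections of saline alone, in 4 libraries of the 8 in the series. Genes were chosen by level: a gene was kept where it reached at least 1 CPM (counts-per-million, on the library total) in all 4 saline libraries. This left 13077 of the 21761 genes in the deposited table (60.1%). The share of each family kept, given below, is to be read beside that share of all genes. The study set MPTP, a toxin of dopaminergic neurons, against saline, and the 4 MPTP libraries are not used here. The mice were C57BL/6, received saline into the abdomen once a day for 5 days, and gave tissue 4 days after the last injection. RNA was recovered by translating ribosome affinity purification (TRAP), in which ribosomes carrying a tag in one cell type are pulled out of the tissue with the RNA bound to them. The labels name neither the transgene that carried the tag nor the promoter that drove it, so the cells that could carry tagged ribosomes are known only from the tissue label. The protocol covers RNA of the substantia nigra pars compacta and the ventral tegmental area either combined or separate, and does not say which applies here, while the name of the deposited table carries the letters SN. The libraries are numbered 1 to 4, and whether each is a different animal is not stated, so the spread between them may be technical.

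Dopaminergic neurons make dopamine from tyrosine by way of L-DOPA, load it into synaptic vesicles, release it and take it back up through a transporter in the plasma membrane. In the midbrain they fire at a slow, regular pace without input, and their axons reach the striatum and the cortex. They are known for autoreceptors that respond to their own transmitter, for nicotinic receptors on soma and terminals, and for a set of homeodomain and nuclear receptor factors that maintain their identity.

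Totals lay between 54192354 and 69333470 counts per library, so 3 counts, the limit set on a count of 0, corresponded to at most 0.0554 CPM. The reads came from amplified cDNA without molecular identifiers, so such limits cover counting error only. No pair of libraries agreed within sampling noise, and across genes the Pearson correlation of log2 CPM lay between 0.979 and 0.987. Levels are compared between genes only per length, as transcripts-per-million (TPM): the count divided by the summed length of a gene's annotated exons, scaled so that the 12980 kept genes with a length have the same sum in each library. Values after ± are SDs over the 4 libraries throughout. The library saline 3 stood apart from the others in several gene groups, and its values are given beside the results they touch. Because the tissue is bulk, fewer cells of a type and less RNA per cell cannot be told apart.

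All 4 genes that define the labelled cell type were among the most abundant RNAs. Th, which encodes tyrosine hydroxylase, the rate-limiting enzyme of dopamine synthesis, stood at 4485, 3986, 2939 and 4364 TPM in saline 1 to 4. Slc6a3, the plasma membrane dopamine transporter, stood at 3669.8, 3753, 2726 and 3768 TPM. In both genes saline 3 held the lowest level and the other 3 lay close together. Their means, 3944 ± 703 TPM (SD, n = 4) for Th and 3479 ± 504 TPM (SD, n = 4) for Slc6a3, gave ranks 18 and 23 among the 12980 genes. Ddc, the decarboxylase that turns L-DOPA into dopamine, had 1277, 1162, 678 and 990.1 TPM. Slc18a2, the vesicular monoamine transporter that fills synaptic vesicles, had 539, 556, 382 and 524 TPM. Saline 3 was again the lowest, and the order Th, Ddc, Slc18a2 held in all 4 libraries. Ddc ranked 120 and Slc18a2 ranked 271, against a median of 19.7 TPM over all kept genes and a 99th percentile of 941 TPM. The order of Th over Slc6a3 also held in every library. Th ranked between 16 and 25 in single libraries, and Slc18a2 between 239 and 381.

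Slc6a3, Slc18a2 and Gch1 kept nearly the same proportions to Th while their common level moved, and Ddc did so less. The TPM of Slc6a3 divided by that of Th was 0.818, 0.942, 0.928 and 0.863 in saline 1 to 4, a mean of 0.888 ± 0.0575 (SD, n = 4). The ratio of Slc18a2 to Th was 0.127 ± 0.00933 (SD, n = 4) and that of Gch1, which makes the tetrahydrobiopterin cofactor of tyrosine hydroxylase, to Th was 0.0176 ± 0.00114 (SD, n = 4). In saline 3 these 3 ratios lay inside the range of the other libraries. Ddc over Th was 0.285, 0.292, 0.231 and 0.227, so saline 3 and saline 4 were low and saline 1 and saline 2 high. The summed CPM of the 4 marker genes was 8839.8, 8559.7, 5955 and 8567.

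**Figure D1:**
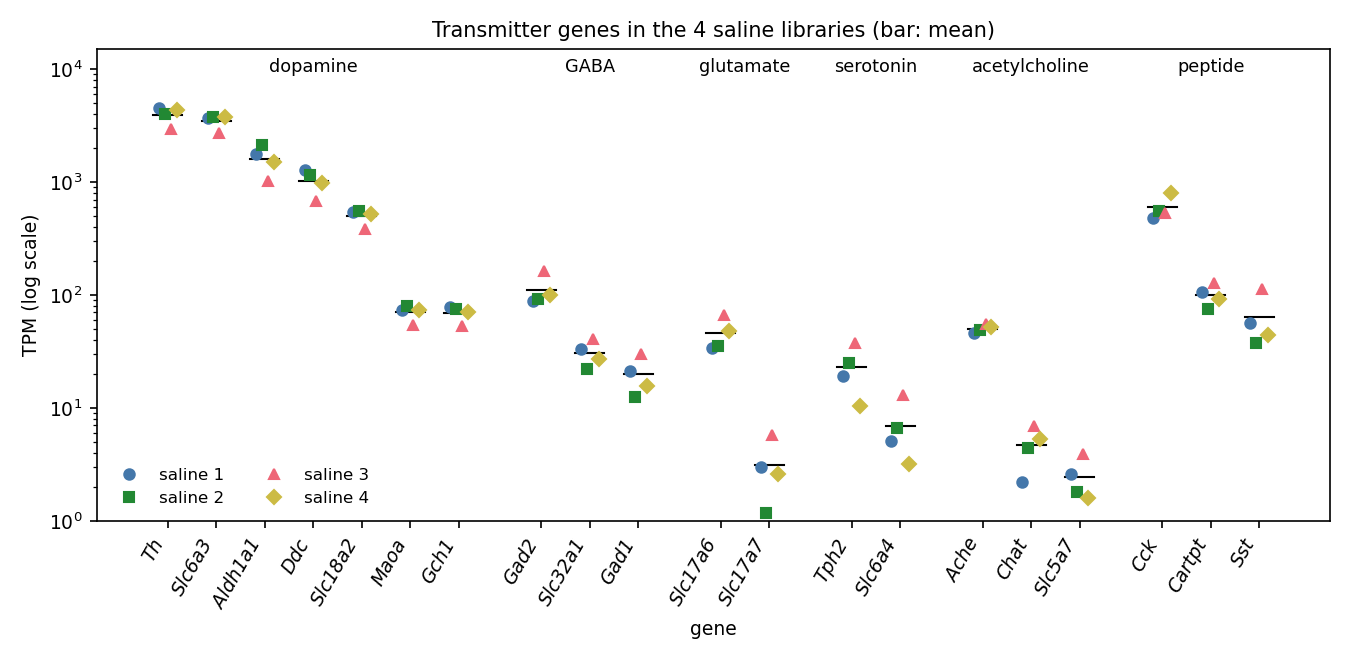
TPM (log axis) of transmitter enzymes and transporters in each of the 4 saline libraries, 1 point per library, with a bar at the mean. The dopaminergic genes Th, Slc6a3, Ddc and Slc18a2 sit above the GABA, glutamate, serotonin and acetylcholine genes plotted in every library. Saline 3 is the lowest point for the dopaminergic genes and the highest for Gad2, Gad1, Slc32a1, Slc17a6 and Tph2.

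The promoters of 3 of these markers, Th (rank 18), Slc6a3 (rank 23) and Slc18a2 (rank 271), are shown because their start regions differ in the motifs they hold. Each sequence runs from 250 bases before to 50 bases after the start annotated by RefSeq on GRCm38.p6, and capitals mark a cyclic AMP response element (CRE, TGACGTCA), the site known to bind CREB and related factors. Searched on both strands were this element, the NBRE (AAAGGTCA), known as the site of the NR4A receptors, and a TATA box (TATAAA). Th lies on chromosome 7 (chr7:142899946-142900245, minus strand), Slc18a2 on chromosome 19 (chr19:59260628-59260927, plus strand) and Slc6a3 on chromosome 13 (chr13:73536497-73536796, plus strand).
Th: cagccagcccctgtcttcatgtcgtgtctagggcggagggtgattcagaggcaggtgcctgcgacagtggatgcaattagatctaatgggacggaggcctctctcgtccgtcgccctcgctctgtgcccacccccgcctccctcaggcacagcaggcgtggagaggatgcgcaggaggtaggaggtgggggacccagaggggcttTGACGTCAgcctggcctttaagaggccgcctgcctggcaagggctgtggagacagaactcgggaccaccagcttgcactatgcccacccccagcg
Slc18a2: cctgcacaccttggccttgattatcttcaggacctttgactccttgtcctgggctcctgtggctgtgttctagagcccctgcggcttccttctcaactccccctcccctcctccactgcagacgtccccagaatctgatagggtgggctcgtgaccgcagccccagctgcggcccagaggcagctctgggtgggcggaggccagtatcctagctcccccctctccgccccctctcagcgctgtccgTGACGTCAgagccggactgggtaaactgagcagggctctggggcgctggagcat
Slc6a3: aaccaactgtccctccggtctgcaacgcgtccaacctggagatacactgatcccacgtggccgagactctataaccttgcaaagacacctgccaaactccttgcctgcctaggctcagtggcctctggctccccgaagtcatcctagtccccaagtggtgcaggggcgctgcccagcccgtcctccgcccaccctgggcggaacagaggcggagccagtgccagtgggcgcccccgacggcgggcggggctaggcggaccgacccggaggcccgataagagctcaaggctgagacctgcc
The CRE began at position -45 in Th and at position -4 in Slc18a2, counted from the annotated start, and none of the 3 motifs was found in the window of Slc6a3. A CRE was present in 1.80% of all 32544 promoters in the table, in 2.98% of those of kept genes and in 4.91% of those of the top decile of kept genes by TPM. In the same order of sets, the NBRE was present in 1.52%, 0.947% and 1.09%, and the TATA box in 13.6%, 7.20% and 7.79%. Of the 2 annotated promoters of Ddc, the upstream one held the letters of an NBRE and of a TATA box, both on the strand opposite to the gene. The 2 matches overlapped, in the stretch TGACCTTTATA. All motif matches given here describe letters in a window and say nothing of binding.

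The other genes of dopamine synthesis spanned a wide range of levels. All 9 members of the synthesis and packaging list were kept, and Th held 58.5% ± 2.65 (SD, n = 4) of their summed TPM. Pcbd1 and Qdpr, which regenerate tetrahydrobiopterin after each hydroxylation, stood at 761 ± 116 and 365 ± 47.0 TPM (SD, n = 4). Gch1, the first enzyme of cofactor synthesis, stood at 78.8, 74.8, 53.2 and 70.2 TPM, below Qdpr in every library. Its downstream enzymes Pts and Spr were at 21.9 ± 1.38 and 20.7 ± 5.14 TPM, with overlapping ranges. Gch1 was lowest in saline 3, like Th, whereas Qdpr, at 374, 346, 425 and 314 TPM, was highest there.

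Aldh1a1, an aldehyde dehydrogenase known to mark the ventral tier of the substantia nigra, was the most abundant enzyme that acts on dopamine metabolites, at 1759, 2125, 1022 and 1492 TPM (rank 68). Saline 2 was the highest and saline 3 the lowest, and the ratio of Aldh1a1 to Th, 0.392, 0.533, 0.348 and 0.342, was also highest in saline 2. Its close copy Aldh1a7 stood at 103 ± 31.5 TPM, and reads shared between the copies make both values uncertain. Maoa, a monoamine oxidase, was at 74.0, 79.8, 54.8 and 73.8 TPM, above the related Maob, at 15.4, 22.8, 21.1 and 19.5 TPM, in every library. The aldose reductase Akr1b3 and the mitochondrial dehydrogenase Aldh2 were at 18.4 ± 2.39 and 3.43 ± 0.307 TPM.

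Genes of other transmitters were present at levels well below Th. Gad2, which makes GABA, stood at 88.6, 92.9, 163 and 99.02 TPM and Gad1, the second GABA-making enzyme, at 21.1, 12.5, 30.2 and 15.6 TPM. Slc32a1, the vesicular GABA transporter, was at 33.0, 22.2, 40.8 and 26.9 TPM. All 3 were highest in saline 3. Th exceeded Gad2 18.1-fold in saline 3 and 42.9-fold to 50.6-fold in the other libraries. The GABA-degrading enzymes Abat (109.9 ± 6.35 TPM) and Aldh5a1 (91.3 ± 2.68 TPM) varied far less between libraries than the GABA-making ones. The GABA uptake transporter Slc6a11 was at 37.5 ± 9.24 TPM.

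Slc17a6, the vesicular glutamate transporter known in a subset of midbrain dopaminergic neurons, stood at 34.0, 35.5, 66.5 and 47.9 TPM, again highest in saline 3. Slc17a7, the cortical form, was near the lower end of the kept genes with 299, 124, 522 and 215 counts, a mean of 3.14 ± 1.92 TPM. The enzymes that make glutamate from other metabolites were higher and even: Got1 at 469 ± 21.0 TPM, Glud1 at 194 ± 14.7 TPM and Got2 at 132 ± 7.83 TPM. Their ranges did not overlap in this order.

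Serotonergic and cholinergic genes were low. Tph2, the serotonin-making hydroxylase, was at 19.3, 24.7, 37.8 and 10.4 TPM and the serotonin transporter Slc6a4 at 5.09, 6.60, 13.1 and 3.16 TPM. Both were highest in saline 3 and lowest in saline 4. Chat, which makes acetylcholine, was at 4.74 ± 1.98 TPM, with the count of Slc18a3, which lies inside it, at 29.1% of its own, and the choline transporter Slc5a7 at 2.46 ± 1.04 TPM. Ache, the enzyme that breaks acetylcholine down and that dopaminergic neurons are known to make, was higher, at 45.6, 48.6, 55.1 and 52.3 TPM, with no library apart. The noradrenaline and adrenaline genes were not kept: Dbh had 13, 4, 43 and 0 counts in saline 1 to 4, the transporter Slc6a2 had 8, 3, 57 and 0, and Pnmt had 0 counts in all 4, which allows at most 0.0120 CPM over the group. Most counts of Dbh and Slc6a2 lay in saline 3.

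Among neuropeptide precursors, 16 of 35 were kept (45.7%, against 60.1% of all genes). Cck, cholecystokinin, known as a cotransmitter of these neurons, stood at 485, 559.5, 535 and 808 TPM and held 59.98% ± 7.78 (SD, n = 4) of the summed TPM of the list. It was highest in saline 4, and its range did not overlap that of Cartpt, which followed at 100.0 ± 22.0 TPM. Grp, a bombesin-like peptide known in a subset of dopaminergic neurons, was at 48.3, 51.9, 45.3 and 60.04 TPM. Sst (57.0, 37.5, 114 and 44.5 TPM), Penk (21.3, 22.98, 57.8 and 28.3 TPM) and Tac1 (13.3, 7.65, 21.8 and 11.5 TPM), peptides better known from neighbouring neurons, were highest in saline 3, whereas Cck and Grp were not. Igf1, a growth factor, was at 21.0 ± 4.25 TPM and the natriuretic peptide gene Nppc at 19.2 ± 3.42 TPM.

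Seen across all kept genes, the levels were unequal: 412 genes held 50% of the TPM, the 100 most abundant held 31.4%, and levels ran from 3.29 TPM at the 10th percentile to 132 TPM at the 90th. The 20 most abundant genes included genes of synaptic vesicle release and of the cytoskeleton. Cplx1, complexin, which clamps vesicle fusion, stood at 6732 ± 663 TPM (rank 6), the calcium sensor Vsnl1 at 6159 ± 951 TPM (rank 9) and the SNARE protein Snap25 at 4168 ± 514 TPM (rank 16). The G protein subunit Gng3 was at 4429 ± 617 TPM and calmodulin Calm2 at 4045 ± 651 TPM, and the ranges of both overlapped that of Th. The tubulins Tuba1a (5393 ± 547 TPM) and Tuba1b (4596 ± 346 TPM) are close copies, so their split is uncertain. Cxx1c stood at 3700.2 ± 244 TPM. Gphn, the gephyrin scaffold of inhibitory synapses, was listed at 5465 ± 699 TPM. However, the gene spans 467448 bases with 3749 bases of exon, and reads from its introns cannot be told apart.

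Several other entries at the top cannot be read as levels of the named RNA. Cmss1 ranked 1 with 33486 ± 1862 TPM and Filip1l 3 with 12525 ± 697 TPM, but Filip1l lies inside the span of Cmss1 and its count was 99.9% of that of Cmss1. Snurf (16001 ± 751 TPM), the microRNA genes Mir682 (10323 ± 1209 TPM) and Mir125b-1 (5899 ± 341 TPM), and Cdr1 (9232 ± 2348 TPM) have 100.0% of their exon bases inside exons of other genes. No source used here gives the strand setting of the counts, and the kit does not mark strand, so reads from the partners cannot be told apart. Zc3h7a (5298 ± 1015 TPM), Arhgap21 (6558 ± 254 TPM), D130009I18Rik (6275 ± 348 TPM) and the pseudogene Gm6682 (3640.2 ± 366 TPM) complete the 20 most abundant genes.

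The same sharing was seen across the table. Where 1 gene lay within the span of another and had over 400 counts, the outer gene had at least as many counts in 467 of 494 pairs (94.5%), and in 103 of 115 pairs (89.6%) whose inner gene had under 1% of its exon bases in exons of another gene. No source used here says how reads in introns were counted, so the place in the order of a gene with long introns is uncertain. A nested gene reached at least 50% of the outer gene's count in 125 kept genes (0.956%). None of the 4 markers was among them. Of the genes named here, exons of other genes held 48.6% of the exon bases of Drd5, 31.1% of Kcnj3, 31.2% of Nr2c2, 63.5% of Trf and 64.5% of Igf2, and between 20.1% and 27.4% of Adora1, Gng3, Slc32a1, Tuba1a and Tuba1b. With the whole gene span as length, Th ranked 23, Slc6a3 165, Slc18a2 670 and Ddc 875.

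**Figure D2:**
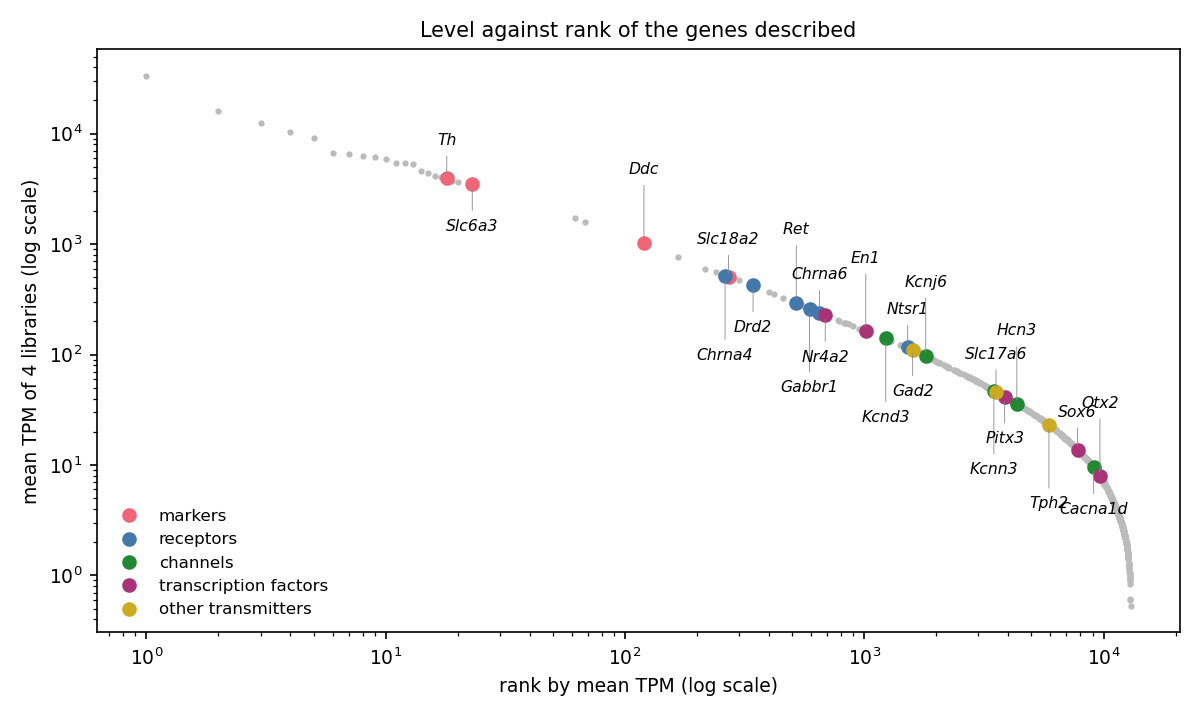
TPM (log axis) against rank (log axis) for the kept genes of the lists described here and the 20 most abundant genes, mean of 4 libraries. The 4 markers lie between rank 18 and rank 271, and the labelled receptors, channels and transcription factors run from rank 262 (Chrna4) to rank 9659 (Otx2).

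Transcription factors known from dopaminergic neurons were expressed over a wide range, and 23 of 25 were kept (92%, against 60.1% of all genes). Nr4a2 (Nurr1), the orphan nuclear receptor required for dopaminergic fate, stood at 219, 267, 176 and 247 TPM, rank 687 (887 with the gene span as length). Saline 2 was the highest and saline 3 the lowest. The homeodomain factor Pbx3 stood at 142 ± 22.1 TPM. En1, engrailed 1, a survival factor of these neurons, was at 187, 165, 125 and 171 TPM and Foxa1, a forkhead pioneer factor, at 104, 115, 75.4 and 106 TPM. Its partner Foxa2 was lower, at 32.1, 36.4, 25.3 and 40.9 TPM, and the ratio of Foxa1 to Foxa2 was 2.99 ± 0.296. Pitx3, the homeodomain factor tied to survival of nigral neurons, was at 40.4, 41.4, 34.4 and 49.0 TPM, and Nr4a2 exceeded it 5.04-fold to 6.44-fold by library. Ebf3 (72.3 ± 9.62 TPM), the chromatin organizer Satb1 (69.2 ± 8.55 TPM) and Zfhx3 (58.3 ± 2.35 TPM) followed, and of these 3 Zfhx3 alone had an SD of log2 CPM under 0.1 (0.09).

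A further set was chosen after its values were seen, because the genes are used to tell subtypes of these neurons apart. Lmx1a, a LIM homeodomain factor of the dopaminergic lineage, stood at 23.7, 24.3, 16.7 and 25.2 TPM and its relative Lmx1b at 11.9, 11.5, 9.19 and 10.4 TPM. Sox6, known from the ventral substantia nigra, was at 15.6, 13.8, 11.6 and 13.8 TPM, and Otx2, known from the ventral tegmental area, at 6.45, 8.32, 10.5 and 6.24 TPM. Sox6 was above Otx2 in every library, but their ratio ranged from 1.11 in saline 3 to 2.42 in saline 1. Otx2 was highest in saline 3, where Sox6 was lowest.

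In the wider families, most members were low. Of homeodomain and LIM genes 53 of 159 were kept (33.3%), fewer than the 60.1% of all genes, and of forkhead, SOX and HMG genes 33 of 67 (49.3%). Below the factors already given, the highest forkhead genes were Foxp4, at 91.1 ± 13.4 TPM, and Foxk2, at 75.6 ± 3.61 TPM, and the highest further homeodomain genes were Meis3 (61.4 ± 5.08 TPM) and Pbx2 (51.3 ± 4.14 TPM). Tcf7l2, a Wnt effector, stood at 35.7, 23.4, 59.6 and 42.0 TPM, highest in saline 3. Of nuclear receptors 34 of 47 were kept (72.3%). Thra, the thyroid hormone receptor, was at 328 ± 22.0 TPM and the clock repressor Nr1d1 at 266 ± 17.1 TPM. The range of Nr1d1 overlapped that of Nr4a2. Thra and Nr1d1 lie tail to tail on opposite strands and exons of other genes hold 5.70% and 8.55% of their exon bases. Nr1d2 (65.0 ± 4.42 TPM), Esrrg (61.0 ± 10.1 TPM), Nr2c2 (41.7 ± 4.67 TPM) and the progesterone receptor Pgr (38.4 ± 3.60 TPM) followed.

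Basic helix-loop-helix genes were kept in 54 of 80 cases (67.5%, against 60.1% of all genes). They were led by the MYC partner Max at 117 ± 15.2 TPM, with Clock, of the circadian clock, at 68.7 ± 3.39 TPM and Srebf2, of cholesterol synthesis, at 62.1 ± 5.80 TPM. Of bZIP and other stimulus-regulated factors 126 of 197 were kept (64.0%). The stress factor Atf4 was the highest of these, at 311, 379, 342 and 379 TPM, followed by Atf2 at 204 ± 11.6 TPM and Nfe2l1 at 202 ± 19.7 TPM. Etv5, an ETS factor that responds to growth factors, stood at 181, 188, 145 and 175 TPM, lowest in saline 3. Of the immediate early genes 16 of 23 were kept (69.6%). Junb was at 76.4 ± 14.1 TPM, Jund at 71.0 ± 12.8 TPM (with 52.6% of its exon bases shared with another gene), Jun at 18.2 ± 1.93 TPM and Arc at 11.7 ± 4.31 TPM.

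Of the genes for voltage-gated and leak sodium channels 15 of 18 were kept (83.3%, against 60.1% of all genes). The auxiliary subunit Scn2b stood at 271, 244, 255 and 257 TPM, evenly across libraries, above Scn3b at 122 ± 14.8 TPM. Of the pore-forming subunits, Scn1a (46.5, 38.7, 66.7 and 43.8 TPM) and Scn2a1 (49.6, 49.2, 49.2 and 43.7 TPM) overlapped in range, and Scn8a was at 25.1 ± 6.15 TPM. Scn1a and Scn8a were highest in saline 3, and Scn2a1 was not. Unc80 and Fam155a, partners of the sodium leak channel that depolarizes these neurons between spikes, were at 118 ± 4.37 and 103 ± 3.62 TPM.

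Pacemaker HCN channels carry the current that opens on hyperpolarization. Hcn3 was the highest, at 33.9, 37.8, 34.6 and 36.0 TPM, and held 47.0% ± 4.71 (SD, n = 4) of the family's TPM. Hcn2 stood at 22.7, 19.9, 29.9 and 22.1 TPM and Hcn4 at 11.4, 9.75, 10.6 and 13.5 TPM, and the ranges of the 3 genes did not overlap. Hcn2 was highest in saline 3, and Hcn3 and Hcn4 were not.

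Of voltage-gated calcium channel genes 22 of 26 were kept (84.6%). The auxiliary subunits Cacnb4 (83.5 ± 4.29 TPM), Cacng7 (79.9 ± 18.4 TPM) and Cacnb3 (77.4 ± 4.90 TPM) overlapped at the top. Cacna1a, the P/Q-type pore, was at 26.6 ± 2.19 TPM. The L-type pores were lower, and they were chosen after their values were seen because L-type current is tied to pacemaking: Cacna1d stood at 9.39, 7.53, 10.9 and 10.2 TPM and Cacna1c at 6.59, 5.26, 7.80 and 5.59 TPM. Cacna1d was above Cacna1c in each library, with a ratio of 1.52 ± 0.203 (SD, n = 4). The T-type pore Cacna1g, chosen in the same way, was at 19.2, 13.8, 16.3 and 18.9 TPM.

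Potassium channel genes made up the largest channel group, with 38 of 54 voltage-gated members kept (70.4%). Kcnip1 was listed at 1737 ± 54.7 TPM (rank 62), above every other channel gene described, but the gene spans 364010 bases of chromosome 11 and 6200 bases of exon, and reads from its introns cannot be told apart. Kcnd3, the pore of the A-type current that slows firing, stood at 151, 161, 102 and 145 TPM, lowest in saline 3. Its relative Kcnd2, chosen after its values were seen, was at 21.0 ± 3.27 TPM, and the ratio of Kcnd3 to Kcnd2 was 6.90 ± 2.15. Kcnip4, a calcium-binding partner of these pores, was at 223, 268, 204 and 232 TPM and Kcnip3 at 77.4 ± 16.8 TPM. Kcna1 (105, 74.4, 172 and 112 TPM) was highest in saline 3 and Kcns3, a silent modifying subunit, was even at 105 ± 5.96 TPM. Kcnab2, an auxiliary subunit, was at 120.3 ± 11.2 TPM.

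Kcnj6 (GIRK2), the inward rectifier that D2 and GABA-B receptors open, stood at 115, 107, 69.1 and 99.3 TPM. It held 50.3% ± 10.3 (SD, n = 4) of the TPM of its family, in which 11 of 17 were kept (64.7%). The other GIRK genes were lower, Kcnj9 at 15.2 ± 2.51 TPM and Kcnj3 at 8.36 ± 2.48 TPM. Kcnj6 was 5.98-fold above Kcnj3 in saline 3 and 10.9-fold to 17.8-fold above it in the other libraries. Kcnj11, the pore of the ATP-sensitive channel, was at 16.7, 12.5, 21.9 and 15.5 TPM, and Kcnj10, better known from glia, was at 19.2, 19.2, 37.8 and 25.8 TPM, highest in saline 3. Kcnn3 (SK3), the calcium-activated channel that keeps pacemaking regular, stood at 50.5, 49.9, 36.4 and 51.8 TPM, above Kcnn2 (16.9, 12.7, 17.9 and 14.5 TPM) in every library. Kcnma1, the large-conductance channel, was at 16.3 ± 1.19 TPM. Of the K2P leak channels, Kcnk2 (57.7 ± 1.86 TPM) and Kcnk1 (57.3 ± 12.4 TPM) overlapped at the top, and Kcnk3 was at 12.8 ± 5.27 TPM.

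TRP channel genes were kept in 16 of 28 cases (57.1%, near the 60.1% of all genes). Trpm4, a calcium-activated cation channel, was the highest at 66.8, 66.3, 85.3 and 72.3 TPM, and Trpc6 was at 21.5, 17.7, 12.4 and 18.3 TPM, lowest in saline 3. Among chloride channel genes (19 of 26 kept, 73.1%), Lrrc8a was at 98.98 ± 11.7 TPM, but 68.3% of its exon bases lie in exons of other genes. The next, Clcn6 (33.3 ± 1.89 TPM) and Lrrc8d (30.0 ± 1.45 TPM), are therefore the firmer values.

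**Figure D3:**
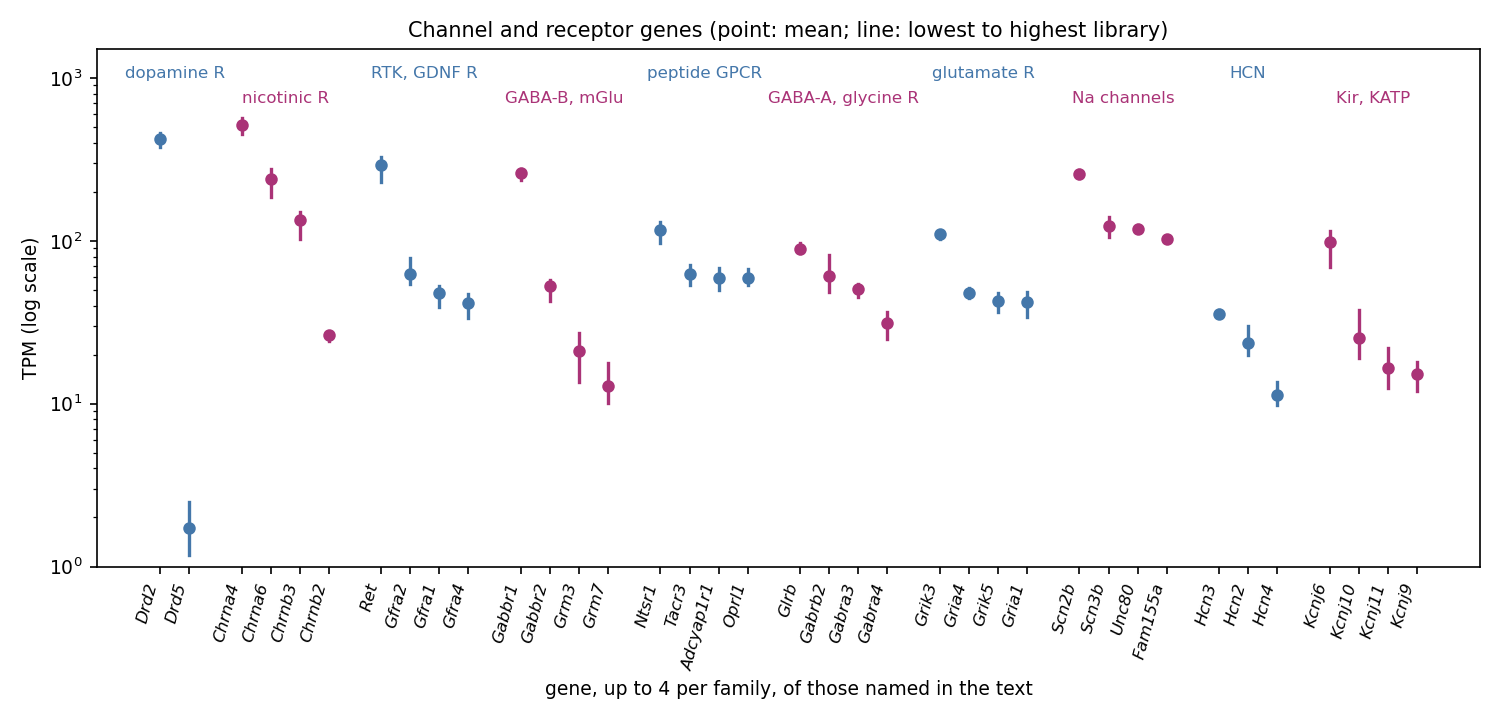
TPM (log axis) of the genes named in the text, up to 4 per family, of 10 channel and receptor families, with a point at the mean of 4 libraries and a line from the lowest to the highest library. Drd2, Chrna4, Ret and Gabbr1 stand clear of the next gene shown in their families, while the ranges of Scn3b and Unc80 overlap.

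Ligand-gated receptors for acetylcholine had a profile led by 3 subunits. Chrna4 stood at 518, 511, 452 and 567 TPM, rank 262 (321 with the longest annotated transcript as length and 431 with the gene span). It held 52.8% ± 2.21 (SD, n = 4) of the TPM of the nicotinic genes, of which 10 of 16 were kept (62.5%). Chrna6, a subunit largely restricted to catecholaminergic and visual neurons, followed at 236, 278, 187 and 259.7 TPM and its usual partner Chrnb3 at 144, 138, 103 and 151 TPM. The ranges of the 3 did not overlap, and all were lowest in saline 3. Chrnb2, the beta subunit that assembles with both alpha subunits, was lower, at 24.3, 27.0, 26.1 and 27.6 TPM, without a low value in saline 3. Chrna3 (20.6 ± 4.24 TPM), Chrna5 (19.3 ± 3.64 TPM) and Chrna7 (6.88 ± 1.29 TPM) were lower still on average.

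Of ionotropic glutamate receptor genes 17 of 18 were kept (94.4%, against 60.1% of all genes). Grik3, of the kainate class, was listed at 109.6 ± 5.45 TPM, but the count of Ftl2, a ferritin sequence inside its span, was 53.8% of that of Grik3. The AMPA subunits Gria4 (47.0, 44.7, 51.6 and 47.0 TPM) and Gria1 (46.3, 34.1, 48.2 and 39.3 TPM) overlapped, with Gria3 at 28.8 ± 4.05 TPM and Gria2, which makes the receptor impermeable to calcium, at 25.6 ± 2.92 TPM. Grin1, the obligatory NMDA subunit, was at 38.7, 28.3, 43.7 and 37.5 TPM and the kainate subunit Grik5 at 42.6 ± 4.70 TPM.

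Of GABA-A and glycine receptor genes 18 of 24 were kept (75%). Glrb, the glycine receptor beta subunit, was at 89.2 ± 5.21 TPM. Gabrb2 (62.3, 48.6, 82.0 and 51.6 TPM) was highest in saline 3. Gabra3, an alpha subunit known from monoaminergic neurons, was even, at 51.1, 45.2, 54.0 and 52.5 TPM, and Gabra4 (30.7, 36.4, 25.1 and 32.3 TPM) was lowest in saline 3.

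Among G protein-coupled receptors, Drd2, the D2 dopamine autoreceptor, was the highest, at 443, 421, 376 and 456 TPM and rank 343. With the longest annotated transcript as length Drd2 ranked 465, and with the gene span 2469. It held 98.9% ± 0.263 (SD, n = 4) of the TPM of dopamine receptor genes. Drd5 was kept at 1.72 ± 0.582 TPM. Drd1a, Drd3 and Drd4 were not kept, with at most 157 counts in a library. In saline 3 Drd2 was lower by less than Th: the ratio of Drd2 to Th was 0.0987, 0.106, 0.128 and 0.104 in saline 1 to 4, highest in saline 3.

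Of aminergic and cholinergic receptors 24 of 50 were kept (48%, against 60.1% of all genes). Chrm5, the muscarinic receptor known from dopaminergic neurons, was at 40.0, 48.8, 33.8 and 50.4 TPM and Hrh3, a histamine receptor, at 37.5, 29.5, 50.8 and 41.4 TPM. Adra1b was at 21.5 ± 0.988 TPM and the serotonin receptor Htr2c at 16.9 ± 5.49 TPM. Gabbr1, a subunit of the GABA-B receptor, stood at 266, 237, 258 and 276 TPM, and Gabbr2, the subunit it needs to reach the membrane, at 42.4, 56.1, 55.6 and 57.3 TPM. Gabbr1 exceeded Gabbr2 4.22-fold to 6.28-fold by library. The metabotropic glutamate receptors Grm3, Grm5, Grm4 and Grm7 lay between 12.8 and 21.0 TPM on average.

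Of neuropeptide receptors 36 of 76 were kept (47.4%). Ntsr1, the neurotensin receptor, was the highest at 113, 125, 96.3 and 129.8 TPM, and did not overlap Tacr3, the neurokinin 3 receptor, at 57.1, 71.1, 53.6 and 66.9 TPM. Both were lowest in saline 3. Adcyap1r1, the PACAP receptor (59.5 ± 9.23 TPM), and Oprl1, the nociceptin receptor (59.2 ± 5.62 TPM), followed. Crhr1 stood at 25.8 ± 1.61 TPM and the mu opioid receptor Oprm1 at 24.8 ± 3.05 TPM. Glp2r (38.0, 30.4, 64.3 and 39.0 TPM) was highest in saline 3. The adenosine receptor Adora1 (26.2, 24.3, 41.7 and 30.6 TPM) and the cannabinoid receptor Cnr1 (13.2, 10.5, 22.7 and 14.9 TPM) were also highest there.

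Orphan receptors were kept in 53 of 96 cases (55.2%, near the 60.1% of all genes). Gpr39 was listed at 187 ± 19.5 TPM, with 39.9% of its exon bases in exons of other genes. Gpr133 (123 ± 16.9 TPM), Gpr158 (115 ± 13.2 TPM) and Gpr126 (80.0 ± 12.5 TPM) followed. Among receptors for growth factors, Ret, the signalling receptor of the GDNF family, stood at 301, 326, 229 and 317 TPM. It held 42.7% ± 6.16 (SD, n = 4) of the TPM of its list, in which 30 of 49 were kept (61.2%). Its coreceptors were lower: Gfra2 at 54.5, 55.2, 79.0 and 62.8 TPM, Gfra1 at 51.4, 53.0, 39.2 and 47.8 TPM and Gfra4 at 41.7 ± 5.78 TPM. The ratio of Ret to Gfra1 was 6.11 ± 0.369 (SD, n = 4), and both were lowest in saline 3, where Gfra2 was highest. The BDNF receptor Ntrk2 was at 17.7 ± 2.86 TPM.

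The spread between saline libraries depended on the level. It was measured as the SD of log2 CPM with TMM-scaled library sizes over the 4 libraries. The median was 0.18 over the 13077 kept genes, and 777 genes (5.94%) exceeded 0.5. In the lowest quintile of genes by level, below 7.15 CPM, the median SD was 0.34, and in the highest quintile, above 84.2 CPM, it was 0.13. The markers were above the median for their level: the SD was 0.32 for Th, 0.27 for Slc6a3, 0.30 for Slc18a2 and 0.44 for Ddc. Without saline 3 it was 0.08, 0.03, 0.04 and 0.18, in the same order. The common biological coefficient of variation estimated by edgeR was 0.172, and 0.153 without saline 3.

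**Figure D4:**
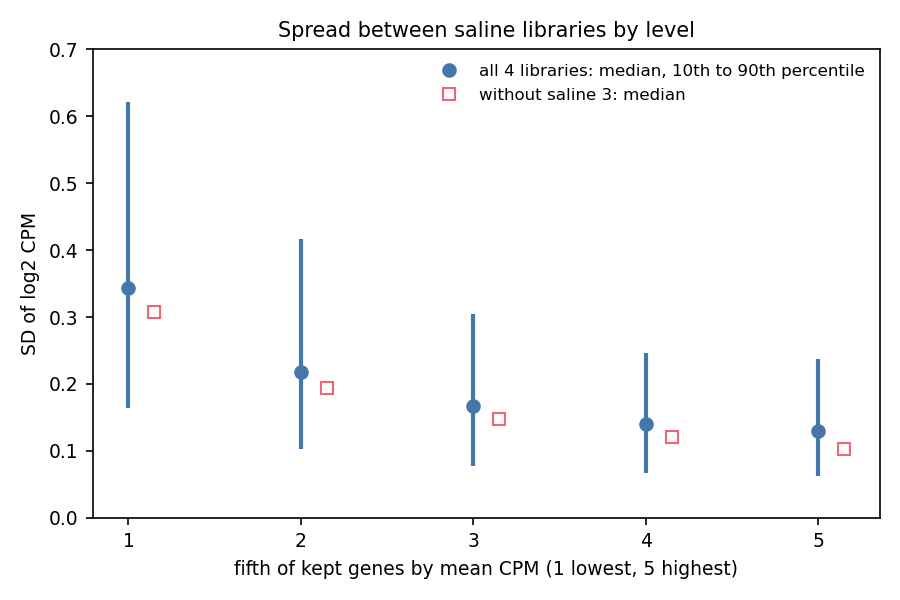
SD of log2 CPM between saline libraries in quintiles of the kept genes by level, with the median (point) and the 10th to 90th percentile (line) over all 4 libraries, and the median without saline 3 (open square). The median falls from 0.34 in the lowest quintile to 0.13 in the highest and is lower in each quintile without saline 3.

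The genes with the most even levels at a mean of at least 20 CPM were not of 1 kind. Camk2n1, an inhibitor of CaM kinase II, stood at 599, 603, 638 and 597 CPM and the kinase Aak1, of clathrin coats, at 326, 328, 346 and 322 CPM. The Mediator subunit Med13 (120.4, 121, 127 and 119.9 CPM) and Fam13c (40.0, 40.4, 42.5 and 40.2 CPM) were as even. Map3k7, Tbcel, Mrrf, Gsr, Tmed9, Ssbp3, Tbpl1 and Ckmt1 complete the 12 genes with the smallest SD, which ran up to 0.02 on the log2 scale.

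Of the 12 genes with the largest SD, several are known from other cells or from nuclei. Malat1, a long noncoding RNA retained in nuclei, stood at 921, 458, 2298 and 647 CPM, highest in saline 3 and also uneven among the other 3. The imprinted RNA Meg3 was at 146, 103, 324 and 114 CPM. The oligodendrocyte genes Mog (17.5, 10.8, 34.9 and 17.5 CPM) and Ermn (37.8, 24.8, 79.2 and 31.6 CPM) and the iron carrier Trf (35.7, 34.6, 96.7 and 39.1 CPM), made largely by oligodendrocytes, were all highest in saline 3. Csrp1 (79.4, 61.1, 184 and 94.5 CPM), Meis2 (19.5, 18.7, 68.8 and 22.1 CPM), Ext2 (15.2, 15.8, 53.3 and 41.8 CPM) and Myo3a (68.0, 31.7, 130.5 and 69.0 CPM) had their highest value in the same library. Igf2, at 24.9, 20.9, 30.4 and 6.85 CPM, was also highest in saline 3, and its lowest value was in saline 4. Fam84a, at 53.0, 7.92, 15.8 and 11.7 CPM, and Wdr91, at 45.4, 19.4, 17.9 and 17.97 CPM, were highest in saline 1.

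Markers of other cell types moved with the dopaminergic genes in the opposite direction in saline 3. The summed CPM of the 16 oligodendrocyte markers was 1019.8, 849, 1964 and 1032 in saline 1 to 4, and 16 of 16 were highest in saline 3. The 16 astrocyte markers summed to 858, 815, 1216 and 895 CPM, with 14 highest in saline 3, and the 10 GABAergic markers to 292, 258, 509.7 and 295 CPM, with 9 highest there. Over all kept genes, 29.8% were highest and 29.1% lowest in saline 3. Of the 23 dopaminergic factors, 15 were lowest in that library, with 3084, 3461, 2611 and 3138 summed CPM. The markers of other cells were present in the other 3 libraries too: Mbp, of myelin, was at 98.2, 69.9, 186 and 90.7 TPM. The astrocyte genes Aldoc (255, 235, 378 and 278 TPM) and Gfap (8.03, 7.95, 17.3 and 9.62 TPM) were highest in saline 3 and not far apart elsewhere.

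Markers of microglia and of vessels were kept less often than the 60.1% of all genes. Of microglia markers 6 of 16 were kept (37.5%), and their sums were 57.0, 49.0, 61.1 and 62.8 CPM. The defining genes Cx3cr1, Tmem119 and Aif1 were below the minimum, with 176, 60, 221 and 46 counts for Cx3cr1. Of endothelial and mural markers 6 of 15 were kept (40%), with sums of 17.7, 11.6, 24.0 and 11.6 CPM. Cldn5, of endothelial junctions, had 14, 31, 40 and 5 counts. Haemoglobin RNA was present, with Hbb-bs at 307, 194, 428 and 209 TPM and Hba-a2 at 242, 153, 365 and 313 TPM, although reads shared with the other globin copies make these uncertain. Whether the share of other cells accounts for the level of any dopaminergic gene in saline 3 was not tested.

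**Figure D5:**
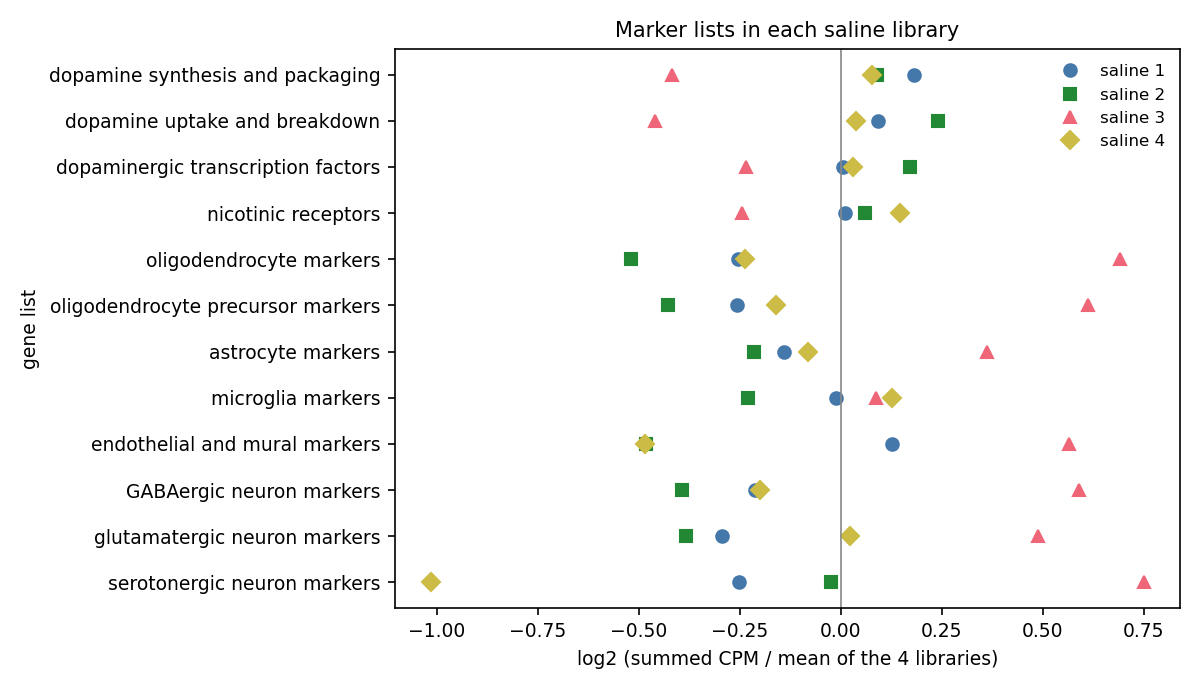
Summed CPM of marker lists in each saline library as log2 of the ratio to the mean of the 4 libraries. In saline 3 the dopaminergic lists lie below 0 and the oligodendrocyte, astrocyte, GABAergic, glutamatergic and serotonergic lists above 0, and the microglia list is highest in saline 4.

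Members at the limit of 1 CPM show how little separates kept from unkept genes. Prss57 and Sertad3 were just inside, with a lowest library of 1.01 CPM (70 counts). Gm833 and Mir1906-1 were just outside, with a lowest library of 0.999 CPM (67 counts).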

How the data were processed

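Ribosome-bound RNA of midbrain dopaminergic neurons was sequenced in 4 saline and 4 MPTP libraries, and only the saline libraries were used. Per the labels' protocols, nanogram amounts of RNA were amplified with the Ovation RNA-Seq V2 kit, which does not mark strand, then sheared, made into TruSeq libraries and sequenced from a single end on an Illumina HiSeq. Such amplification can alter levels between genes. Reads were aligned with TopHat2 2.0.8 to mm10, per the submitters' processing notes. The authors deposited raw counts per gene, with no normalization, and no source used here names the counting tool, the annotation or the strand setting.

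Of the 21761 rows, 27 symbols turned into dates by a spreadsheet were restored by Entrez identifier from RefSeq. A further 90 rows without a symbol held 0.0505% to 0.0560% of the counts and stayed in the totals. Exon lengths came from GENCODE vM21 for 21493 rows, and 268 rows without a length have no TPM. Spread was computed on log2 CPM with TMM scaling and a prior count of 2 in edgeR 4.0.16 (R 4.3.3), where the common dispersion came from a fit with an intercept alone, and the code was tested on simulated data. DESeq2 1.42.0 gave alternative size factors, and Python 3.11.15 with pandas 2.3.3 did the rest.

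Genes were named by rule: the 4 markers, the 20 most abundant genes, up to 8 of the most abundant members per list plus those that define another transmitter or cell type, the 12 genes with the largest and the 12 with the smallest SD at a mean of at least 20 CPM (predicted, small RNA and unnamed genes passed over), and genes at the limit of 1 CPM. Some genes this rule names are not reported here. The rule and the lists were chosen with earlier results of these data known. With 1 group, no test between groups was made, and where the ranges of genes over the libraries overlap, an order given between them is one of means. Alternatives were other filters, size factors, prior counts and gene lengths, and leaving out each library.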

Additional observations from a re-analysis of the deposited data

Results flagged for a closer look

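In 13 of the 203 genes named above and in 2 of the 6 marker lists, 1 of the 4 libraries lay apart from the others: its gap to the nearest one, divided by the whole range, exceeded the critical value of Dixon's test for 4 samples. The same held for 826 of all 13077 kept genes (6.32%), close to the share of the named genes. The named genes include the 12 with the largest and the 12 with the smallest SD over these same libraries. Meis2, Trf, Wdr91 and Camk2n1, among the 13, were named that way, so the share of the named genes is not independent of the spread. Chance marks about 1 in 20 groups. Values are CPM on library totals, and no cause was tested. Saline 3 was the library apart in 7 of these genes and in both lists, and in 346 (41.9%) of those marked among all kept genes. 

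Saline 3 was the lowest in Slc6a3, the dopamine transporter, with 2623 CPM against 3526 to 3659 in the others, and in Kcnn3, a calcium-activated potassium channel, with 106 CPM against 146 to 152 in the others. It was the highest in 5 genes. Gad2, which makes GABA, had 266 CPM against 145 to 163 in the others. Scn8a, a sodium channel pore, had 151 CPM against 95.2 to 101 in the others. Trf, the iron carrier, had 96.7 CPM against 34.6 to 39.1 in the others. Meis2, a homeodomain factor, had 68.8 CPM against 18.7 to 22.1 in the others, and Camk2n1, among the genes with the smallest SD, had 638 CPM against 597 to 603 in the others. The summed level of the oligodendrocyte markers had 1964 CPM against 849 to 1032 in the others, and that of the GABAergic markers 509.7 CPM against 258 to 295 in the others.

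The other 3 libraries were apart in 6 genes. Saline 1 was the highest in Wdr91, with 45.4 CPM against 17.9 to 19.4 in the others, and the lowest in Gabbr2, the GABA-B receptor subunit, with 78.8 CPM against 103 to 108 in the others, and in the calcium channel subunit Cacnb3, with 78.1 CPM against 88.8 to 90.1 in the others. Saline 2 was the highest in Kcnk2, a leak channel, with 83.9 CPM against 78.1 to 78.7 in the others. Saline 4 was the highest in Cacna1a, the P/Q-type pore, with 95.7 CPM against 80.6 to 82.3 in the others, and the lowest in the sodium channel Scn2a1, with 156 CPM against 174 to 176 in the others.

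With TMM-scaled library sizes, an alternative chosen after seeing the data, the same library stayed apart in 6 of the 13 genes (Kcnn3, Meis2, Scn8a, Slc6a3, Trf and Wdr91) and in the GABAergic markers. It did not in the oligodendrocyte markers, nor in the other 7 genes, Gad2 among them. For Camk2n1 the scaled values were 607, 611, 611 and 607 CPM in saline 1 to 4, with no library apart.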

How the results depend on the processing

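Of 135 values recomputed under an alternative, 114 stayed within 1 SD (between libraries or, for measures of spread, between the fits that leave out a library), or within 1.5 times for the number of genes kept, 21 moved and none reversed. Against 13077, the number of genes kept was 10690 with a minimum of 5 CPM and 19104 with no filter. The choice of length moved the order: with the longest annotated transcript Slc6a3 ranked 30 and Ddc 56, and with the gene span, introns included, Th ranked 23, Slc6a3 165, Slc18a2 670 and Ddc 875. With the gene span, Chrna4 ranked 431, Nr4a2 887, Ret 1094 (520 by exon length) and Drd2 2469. With the longest transcript, Grik3 held 20.9%, Th 52.5% and Kcnj6 65.9% of the TPM of their lists. The median SD of log2 CPM was 0.158 with a minimum of 5 CPM and 0.261 with no filter, and the common biological coefficient of variation was 0.140 and 0.318. Leaving out each library in turn gave a median SD of 0.156 to 0.183 and a coefficient of 0.153 to 0.185, the lowest without saline 3 in both. The gene span as length and the values without saline 3 beside single genes were chosen after seeing the data.

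No paired analysis was possible because the 4 libraries form 1 group and no result comes from a test between groups. Levels of nested, overlapping or near-identical genes are limited by the unknown counting rule, and the smallest detectable level by depth, at 3 counts per library.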
